A study of Mus musculus with 16 samples.

Results

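Mice that escaped after inescapable shock were set apart here from the mice that did not and from the mice that never received it. The 4 non-learned helpless (NLH) mice, of 16 mice in all, were compared with the 4 control (Ctrl) and 4 learned helpless (LH) mice together, and a transcript or gene was counted only where the NLH mean lay on the same side of the Ctrl mean and of the LH mean. Every mouse was a male C57BL/6 wild type of 3 months, and both hippocampi of a mouse were pooled into 1 library of total RNA. NLH and LH mice received 180 inescapable foot shocks of 0.4 mA and, 24 h later, 30 escapable shocks of 0.4 mA in a shuttle box. They were called NLH or LH from their escape failures and escape latencies in that test. Ctrl mice had the test and no inescapable shocks, and the 4 homecage (HC) mice had neither and were not handled. All mice were killed at the same time point, 3 h after the test. NLH and LH thus had the same inescapable shocks. In the test an escape ended the shock, so mice that failed more also received more shock, and what goes with the behavior by which they were sorted cannot be told apart from this shock time. In pieces of whole tissue, fewer cells of a type and less RNA per cell cannot be told apart.

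In learned helplessness an animal exposed to stress that it cannot control later fails to escape from stress that it could avoid, and a share of the animals does not develop this deficit. The hippocampus takes part in contextual memory and in the feedback control of glucocorticoid release. Most mammalian genes give rise to several transcripts through alternative promoters, splice sites and ends. The data used here are levels per transcript, so a change can concern 1 transcript of a gene while the sum over the gene stays level.

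The unit is FPKM, in which fragment numbers are divided by transcript length and library size. Fragment numbers were recovered approximately from FPKM steps at 1962 loci that have a single transcript of over 2000 bases. At a fragment length of 290 bases a library held between 20850000 and 39400000 fragments per mouse, and 73.7% to 81.6% of its values fell no more than 0.1 from whole fragments, against 20% for values spread evenly. NLH mice had 27850000 to 38800000 fragments, Ctrl mice 29550000 to 39400000 and LH mice 20850000 to 29100000. LH replicates 3 and 4 stood apart, with 10846 and 15504 transcripts listed at 0, while the other 14 mice had between 4872 and 7352. Spread within a group, as the median SD of log2(FPKM + 0.1) over 22736 transcripts averaging 1 FPKM or more, was 0.43 in LH, 0.25 in NLH, 0.18 in Ctrl and 0.19 in HC. Of 17 hippocampal subfield markers 16 were at 0.432 FPKM (Tdo2) or more in all mice, and Wfs1 fell to 0.00225 FPKM in an LH mouse. Prox1 of dentate granule cells was at 7.27 to 12.1 FPKM in NLH and 5.83 to 11.5 FPKM in LH, and Neurod6 of pyramidal cells was at 22.6 to 35.0 FPKM in NLH and 28.3 to 33.7 FPKM in LH.

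The lncRNA 1700065J18Rik (ENSMUSG00000100872.2) was listed above 0 in NLH mice alone. Its transcript ENSMUST00000188648 is a lincRNA of 348 bases in 2 exons on the plus strand of mouse chromosome 1 (GRCm38, chr1:192841671-192842740), and it is the only transcript of the gene in the data. Its first 300 bases are shown because it is listed at 0 in every mouse outside NLH. It comes from GENCODE vM21, with the 10 bases around the exon junction in capitals, the first exon being 59 bases long.
1700065J18Rik: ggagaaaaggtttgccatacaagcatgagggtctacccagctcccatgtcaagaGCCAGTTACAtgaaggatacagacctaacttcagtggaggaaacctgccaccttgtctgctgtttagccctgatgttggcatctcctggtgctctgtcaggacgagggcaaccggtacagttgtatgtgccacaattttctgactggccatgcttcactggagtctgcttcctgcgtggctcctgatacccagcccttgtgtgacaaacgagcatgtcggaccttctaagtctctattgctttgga

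1700065J18Rik was at 1.06, 0.409, 0.429 and 0.330 FPKM in NLH replicates 1 to 4 and listed at 0 in all 4 Ctrl, all 4 LH and all 4 HC mice. NLH replicate 1 was the highest. Every transcript in the deposited table exceeds 0.1 FPKM in at least 1 mouse, so this transcript, like that of Tbc1d31, is in the table only through NLH mice. A transcript that enters in this way had to be higher in NLH, and its adjusted p, 0.00151 over transcripts from limma for a difference of 2.60 on the log2(FPKM + 0.1) scale (SE 0.25), is given as a description. The values are few fragments. On 49 other single-transcript loci within 13 bases of its length, the lowest cluster of values gave what 1 fragment is worth, and by that measure the NLH values stood for 2.25, 0.993, 1.11 and 0.973 fragments, or 5.32 in all. A count of 0 allows up to 3 fragments, which is 1.00 to 1.89 FPKM in the Ctrl, LH and HC mice, so no level under that limit could be told from 0 in a single mouse. These limits cover counting error only.

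The neighbors of 1700065J18Rik overlapped between NLH and the other groups. Sertad4, on the opposite strand 1748 bases away, was at 2.37 ± 0.419 FPKM in NLH, 2.58 ± 0.342 in Ctrl and 2.39 ± 0.529 in LH (SD, n = 4), a difference of -0.06 on the log2 scale (SE 0.15). Syt14, a member of the synaptotagmin family 48493 bases away, was at 2.63 ± 0.293 FPKM in NLH, 3.10 ± 0.206 in Ctrl and 3.09 ± 0.228 in LH (SD, n = 4). Here NLH was lower by a log2 difference of -0.23 (SE 0.11), with an adjusted p of 0.974 from limma.

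Over the whole transcriptome 14 of 80137 transcripts (0.0175%) passed an adjusted p of 0.05 with NLH on 1 side of both groups, 10 higher (0.0125%) and 4 lower (0.00499%) in NLH. The 10 include those of 1700065J18Rik and Tbc1d31, which are in the data only through NLH mice and had to be higher there. All 14 kept the 4 NLH mice outside the range of the 8 Ctrl and LH mice. Since they were chosen by this contrast on these same mice, the separation is a description only. Among all transcripts 0.301% had all NLH mice above and 0.14% had all NLH mice below the 8 others. The same rule with LH set apart from Ctrl and NLH called 49 transcripts (0.0611%), and with Ctrl set apart from NLH and LH it called 28 (0.0349%). These 3 contrasts share mice and 1 estimate of spread per transcript, though the groups differ in spread, so their counts are not on equal terms. Without NLH replicate 1 the count for NLH was 119, with all 14 among them. It was 22 without NLH replicate 4, 23 without LH replicate 2, and 29 without LH replicates 3 and 4.

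**Figure D1:**
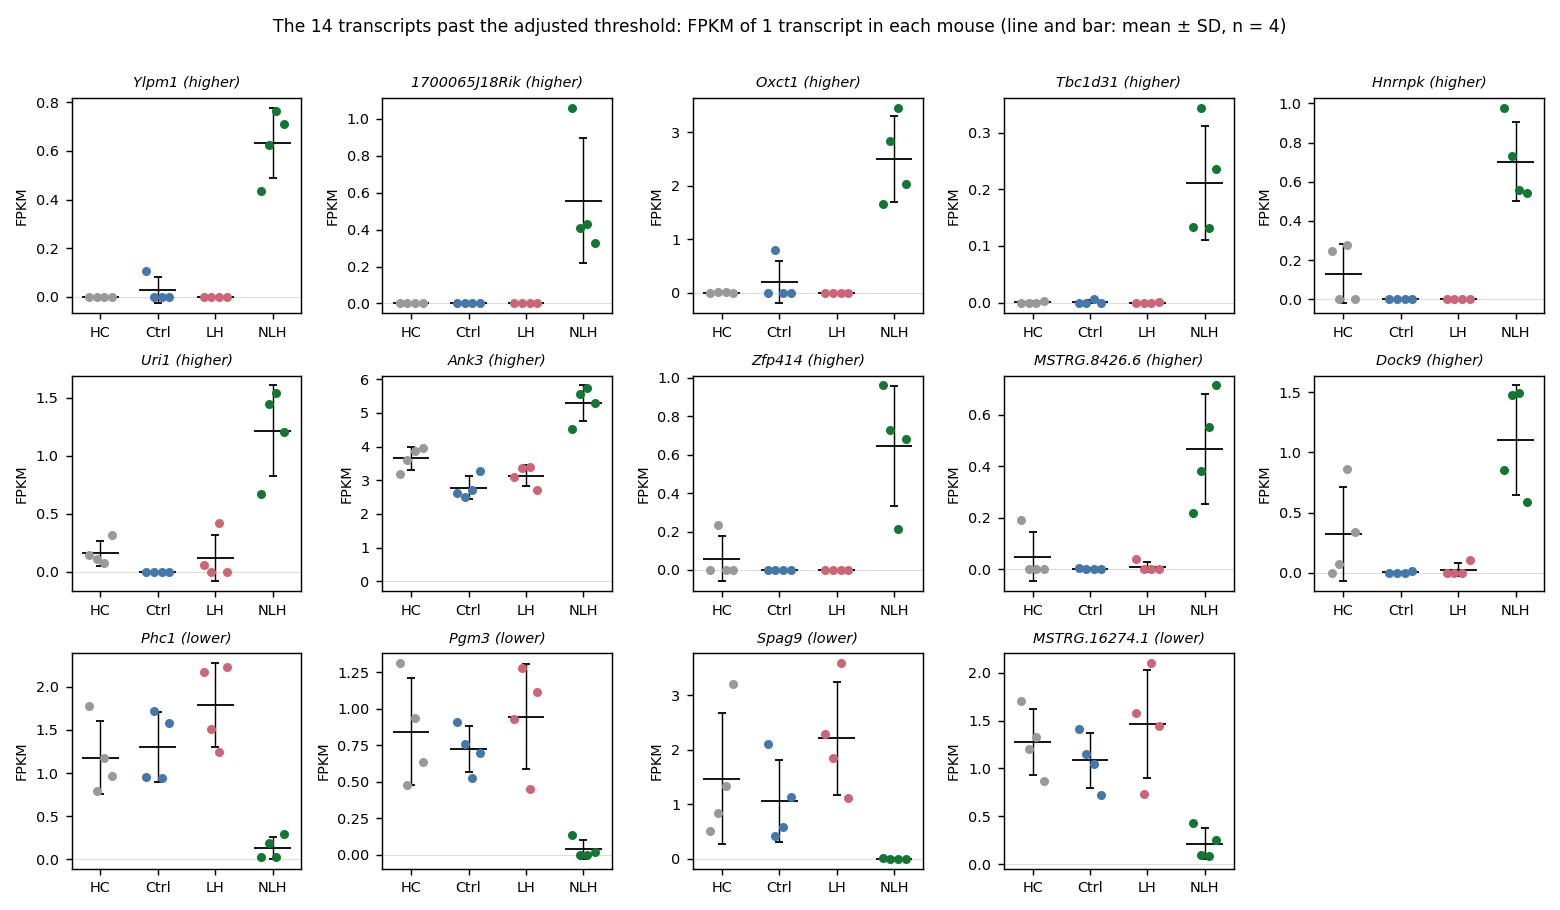
FPKM of each of the 14 transcripts in every mouse of the HC, Ctrl, LH and NLH groups, with a line for the mean and a bar for the SD (n = 4). The NLH mice lie above the 8 Ctrl and LH mice in 10 panels and below them in 4.

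Splice junctions that GENCODE vM21 gives to only 1 transcript of the gene were found for 6 of the called transcripts. They are shown because they are what tells these transcripts from others of the same gene. Each line holds 15 transcript bases on either side of the junction, with the 4 bases around it in capitals.
Oxct1 ENSMUST00000131240: gggtggaaggaaaATGGttgacaacttcgg
Pgm3 ENSMUST00000072585: gacttattcaaccAGGTcgcggacaggaga
Tbc1d31 ENSMUST00000160098: cttgcatggaaacAGTCaccaaggagctgg
Uri1 ENSMUST00000206581: ccagtgtatgtctTGGTggtcactaactgc
Ank3 ENSMUST00000182665: aatttttccagatTGTGgcgagaccctaaa
Zfp414 ENSMUST00000170225: actgagtagaggaTGCCacttcttgcacca

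The junctions lie at the introns with flanking exon bases 4047312 and 4047465 on chromosome 15 (Oxct1), 86556365 and 86558395 on chromosome 9 (Pgm3), 57916116 and 57922957 on chromosome 15 (Tbc1d31), 37996721 and 38023435 on chromosome 7 (Uri1), 69992475 and 69993545 on chromosome 10 (Ank3) and 33629216 and 33629781 on chromosome 17 (Zfp414), all in GRCm38. The called transcripts of Phc1, Spag9 and Hnrnpk have neither a junction nor a base of their own among the 16, 12 and 34 GENCODE transcripts of those genes. Their FPKM rest on how fragments were divided between overlapping transcripts. The called transcript of Ylpm1 has no junction of its own and 292 bases, of 915, that no other transcript of the gene covers.

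Among the raised transcripts Ank3 stood out for its level. Ank3 encodes ankyrin-G, the scaffold of the axon initial segment, and the transcript ENSMUST00000182665.7 is of 4285 bases and annotated as subject to nonsense-mediated decay. It was at 4.53, 5.55, 5.75 and 5.29 FPKM in NLH, at 2.62, 2.49, 2.71 and 3.27 in Ctrl, and at 3.10, 3.36, 3.40 and 2.71 in LH. Every NLH mouse was above every Ctrl, LH and HC mouse, and the HC mice, at 3.18 to 3.95 FPKM, were nearest. By the depth estimate these are 504 to 821 fragments per NLH mouse. The transcript has 1 junction and 0 bases of its own among 47 GENCODE transcripts of Ank3, so its FPKM too rests on how fragments were divided between overlapping transcripts. On the log2 scale NLH differed by 0.82 (SE 0.11, adjusted p = 0.0122 from limma), 0.91 against Ctrl and 0.73 against LH. The 27 other Ank3 transcripts summed to 67.0 ± 4.35 FPKM in NLH, 62.5 ± 2.10 in Ctrl and 57.0 ± 10.3 in LH (SD, n = 4), and the called transcript held 5.66% of the FPKM of the gene.

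The other raised transcripts were at or near 0 in most Ctrl and LH mice, so the size of their log2 differences depends on the 0.1 added to FPKM. Oxct1 encodes the mitochondrial enzyme that activates ketone bodies for use as fuel. Its processed transcript ENSMUST00000131240.1 was at 1.67, 2.83, 3.46 and 2.03 FPKM in NLH, at 0.794 FPKM in Ctrl replicate 2, and at most 0.00496 FPKM in the other Ctrl and LH mice. The difference was 4.23 on the log2(FPKM + 0.1) scale (SE 0.50, adjusted p = 0.0068 from limma), with up to 48.1 estimated fragments per NLH mouse. The rest of Oxct1 was at 33.2 ± 2.95 FPKM in NLH, 29.8 ± 0.945 in Ctrl and 33.0 ± 6.57 in LH (SD, n = 4).

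Ylpm1, which encodes a nuclear protein, was represented by the retained-intron transcript ENSMUST00000166605.1. It was at 0.434, 0.625, 0.763 and 0.710 FPKM in NLH, at 0.107 FPKM in Ctrl replicate 1, and at 0 or below 1e-12 FPKM in the other Ctrl and LH mice. It had the smallest p of all transcripts, with a difference of 2.72 on the log2(FPKM + 0.1) scale (SE 0.25, adjusted p = 0.00151 from limma). It amounted to 7.57 to 17.2 estimated fragments per NLH mouse and to 1.65% of the FPKM of Ylpm1.

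Uri1, a prefoldin-like co-chaperone, was at 0.669, 1.45, 1.54 and 1.2 FPKM in NLH for ENSMUST00000206581.1. It reached 0.416 FPKM in LH replicate 3 and stayed at or under 0.0535 FPKM in the other Ctrl and LH mice, and HC mice were at 0.0734 to 0.313 FPKM. Hnrnpk, an abundant nuclear RNA-binding protein, had 0.978, 0.731, 0.558 and 0.543 FPKM in NLH for ENSMUST00000177117.1 and was near 0 in all Ctrl and LH mice. HC replicates 1 and 3 were at 0.249 and 0.278 FPKM. This Hnrnpk transcript of 476 bases held 0.192% of the FPKM of its gene. The retained-intron transcript of Tbc1d31, the transcript of the zinc finger gene Zfp414, the transcript of Dock9, an activator of Cdc42, and the assembled transcript MSTRG.8426.6, which has no Ensembl identifier, had NLH means of 0.211, 0.647, 1.10 and 0.466 FPKM. Their adjusted p values from limma were 0.0083, 0.0179, 0.0435 and 0.0285. That of Tbc1d31 is a description, as its transcript is in the data only through NLH mice. Dock9 overlapped HC, where replicate 3 was at 0.865 FPKM, above NLH replicates 1 and 4 at 0.851 and 0.587 FPKM.

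The lowered transcripts of Phc1, Pgm3 and Spag9 were moderate in Ctrl and LH and low in NLH. Phc1 encodes a subunit of Polycomb repressive complex 1. Its transcript ENSMUST00000161054.7 was at 0.0292, 0.193, 0.0212 and 0.287 FPKM in NLH, at 0.956, 1.72, 0.944 and 1.58 in Ctrl, and at 2.17, 1.52, 1.25 and 2.23 in LH. The groups did not overlap, and the HC mice, at 0.794 to 1.77 FPKM, lay with Ctrl and LH. NLH differed by -2.94 on the log2 scale (SE 0.33), at an adjusted p of 0.0068 from limma. The 9 other transcripts of Phc1 summed to 4.25 ± 0.793 FPKM in NLH, 3.03 ± 0.284 in Ctrl and 3.90 ± 2.71 in LH (SD, n = 4), so NLH lay within the spread of LH. Summed over the gene, the difference was -0.15 with an unadjusted p of 0.441 from limma.

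Pgm3, which catalyzes a step in the synthesis of UDP-N-acetylglucosamine, was likewise low in NLH for 1 transcript. Its coding transcript ENSMUST00000072585.7 was at 0.137 FPKM in NLH replicate 1 and at most 0.0166 FPKM in the other NLH mice, against 0.529 to 0.910 FPKM in Ctrl and 0.455 to 1.28 FPKM in LH. On the log2 scale NLH differed by -2.80 (SE 0.33, adjusted p = 0.0068 from limma). Its other transcripts summed to 2.37 ± 0.217 FPKM in NLH, 1.63 ± 0.249 in Ctrl and 1.86 ± 0.682 in LH (SD, n = 4), and the gene as a whole was at a difference of -0.09 (unadjusted p = 0.449 from limma).

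Spag9, a scaffold of JNK signaling and motor transport, had at most 0.0148 FPKM of ENSMUST00000041956.13 in NLH, 0.422 to 2.10 FPKM in Ctrl and 1.11 to 3.59 FPKM in LH. At 7340 bases this is 117 to 438 estimated fragments per Ctrl mouse and at most 2.91 per NLH mouse. The rest of Spag9 was at 23.3 ± 1.31 FPKM in NLH, 21.0 ± 0.696 in Ctrl and 24.2 ± 4.74 in LH (SD, n = 4), so 4.56% of the FPKM of the gene was concerned. The assembled transcript MSTRG.16274.1, with no Ensembl identifier, was at 0.0869 to 0.426 FPKM in NLH and 0.727 to 2.10 FPKM in Ctrl and LH, with an adjusted p of 0.0365 from limma. Of 20 alternatives refitted with limma, or 21 for Phc1, Spag9 and Ank3, this call was lost in 13, that of Dock9 in 16 and that of MSTRG.8426.6 in 11. Those of Zfp414 and Ank3 were lost in 4, that of Uri1 in 3, those of Oxct1, Pgm3, Spag9 and Tbc1d31 in 1, and those of Ylpm1, 1700065J18Rik, Phc1 and Hnrnpk in 0. For 1700065J18Rik and Tbc1d31, in the data only through NLH mice, these tallies are a description. Beyond these alternatives, the test with equal variances on FPKM kept 6 of the 14 calls, and adjusting the larger p of NLH vs. Ctrl and NLH vs. LH kept 2.

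**Figure D2:**
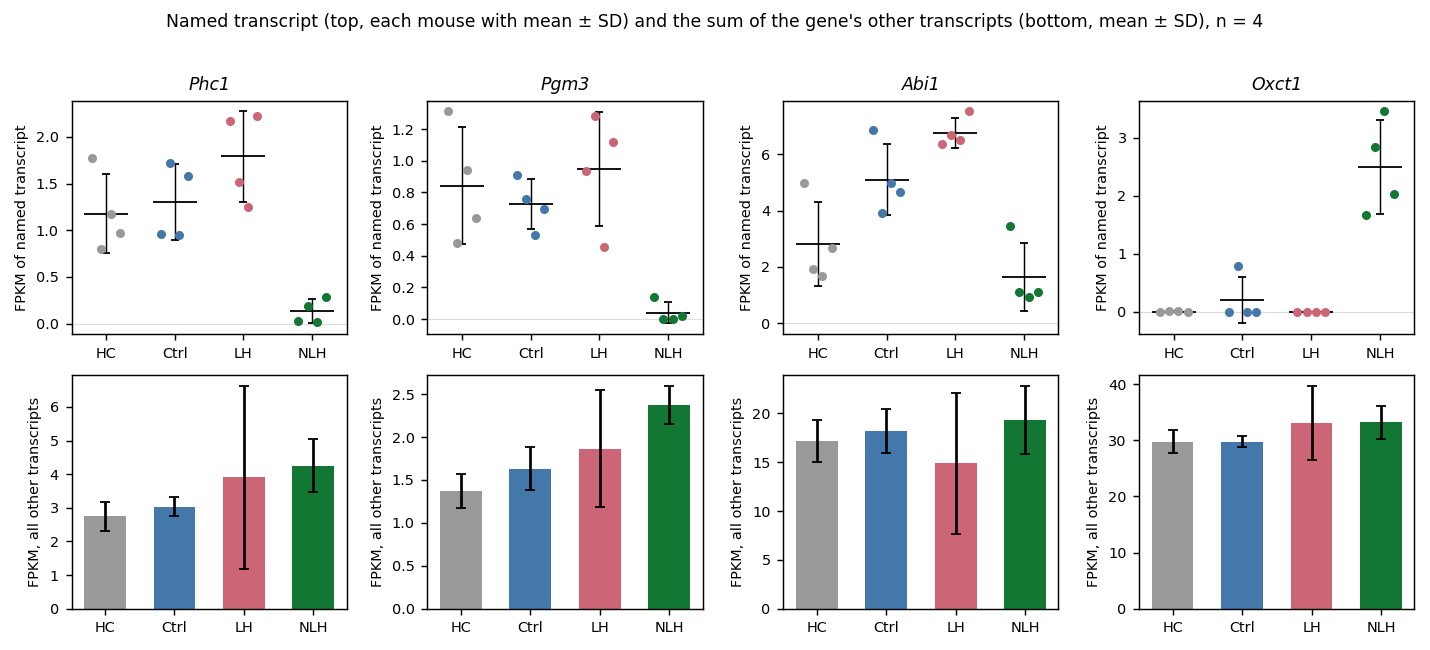
FPKM of the named transcript of Phc1, Pgm3, Abi1 and Oxct1 in each mouse with mean and SD (top), and the summed FPKM of all other transcripts of the gene as mean and SD (bottom), for n = 4 mice per group. Phc1 and Pgm3 transcripts fall to near 0 in NLH while the rest of each gene has its highest mean there.

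Of the transcripts averaging 1 FPKM or more, those of Ank3, Phc1 and Spag9 passed the adjusted threshold. The other transcripts of smallest p above this mean did not pass, with adjusted p from 0.0613 to 0.235 in limma. The mean was taken over NLH, Ctrl and LH mice, so it favors raised transcripts. Those of Slc39a10 and Gria2 reached it only through NLH, with means of 3.41 and 5.95 FPKM there and at most 0.513 FPKM in Ctrl and LH. The Gria2 transcript exceeds 0.1 FPKM in NLH mice alone and had to be higher there. The transcript ENSMUST00000175889.7 of Ppp1r9a, which encodes the dendritic spine scaffold neurabin-1, was at 3.47, 4.27, 5.1 and 3.5 FPKM in NLH. Ctrl mice were at up to 0.667 FPKM, LH mice at 0.890 to 1.94 FPKM, and the groups did not overlap. The adjusted p from limma was 0.124. HC mice, at 1.28 to 2.63 FPKM, lay above Ctrl and below NLH. Slc39a10, a zinc importer, had 1.77 to 5.83 FPKM of ENSMUST00000186852.1 in NLH and at most 0.114 FPKM in Ctrl and LH, except 1.93 FPKM in LH replicate 3.

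Ywhaz, which encodes the abundant adaptor protein 14-3-3 zeta, had 76.5, 90.2, 87.2 and 63.3 FPKM of ENSMUST00000110362.3 in NLH and 30.0 to 42.3 FPKM in Ctrl. LH mice, at 51.7 to 76.2 FPKM, overlapped the NLH mice. The difference was 1.19 against Ctrl and 0.28 against LH on the log2 scale, so this transcript separated Ctrl from the shocked mice more than NLH from LH. The retained-intron transcript ENSMUST00000195062.1 of Gria2, an AMPA receptor subunit, was at 12.1, 3.11 and 8.63 FPKM in NLH replicates 2 to 4 and at most 0.000752 FPKM in NLH replicate 1 and in the 12 other mice. The Mbp transcript ENSMUST00000080658.10, of a major myelin protein, was at 4.62 to 14.6 FPKM in NLH and at 9.53 FPKM in Ctrl replicate 4. It stayed at or under 0.681 FPKM in the other Ctrl and LH mice and made up 1.42% of the FPKM of Mbp.

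Among lowered abundant transcripts, ENSMUST00000149719.7 of Abi1, a subunit of the WAVE actin regulatory complex, was at 3.46, 1.12, 0.925 and 1.13 FPKM in NLH, 3.92 to 6.85 FPKM in Ctrl and 6.35 to 7.53 FPKM in LH. HC mice, at 1.68 to 4.96 FPKM, overlapped NLH. The other Abi1 transcripts summed to 19.3 ± 3.44 FPKM in NLH, 18.2 ± 2.25 in Ctrl and 14.9 ± 7.22 in LH (SD, n = 4). Aig1 ENSMUST00000105534.9 was at 0.00379 to 0.693 FPKM in NLH and overlapped LH replicate 1 at 0.603 FPKM. The Suclg1 transcript ENSMUST00000123159.7, of a citric acid cycle enzyme, was near 0 in NLH and in LH replicates 1, 3 and 4, and at 3.36 to 8.35 FPKM in Ctrl. HC mice, at 3.20 to 6.20 FPKM, overlapped Ctrl, and NLH was not set apart from LH. The antisense lncRNA Gm29542 was at 1.21, 0.0969, 0.0106 and 0.571 FPKM in NLH and at 1.64 to 6.55 FPKM in Ctrl and LH, with a difference of -3.00 (SE 0.56, adjusted p = 0.181 over transcripts from limma). Whether the libraries kept strand is not given in the sources used here, and without it reads of Gm29542 and of a gene on the other strand cannot be told apart.

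With FPKM summed per gene name, 2 of 18287 genes (0.0109%) passed the adjusted threshold, 1700065J18Rik higher and Mtch1 lower in NLH (0.00547% each). The only transcript of 1700065J18Rik is in the data through NLH mice alone and had to be higher there, so its place in this count is a description. Over all genes, 0.224% had all NLH mice above and 0.0984% all NLH mice below the 8 others. With LH set apart the count was 3 (0.0164%) and with Ctrl set apart 2 (0.0109%). Without NLH replicate 1 the count for NLH was 7, and it was 4 without Ctrl replicate 3 and 4 without LH replicate 1.

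Mtch1 encodes a protein of the mitochondrial outer membrane and lies on the minus strand of chromosome 17 (GRCm38, chr17:29332072-29347934). The gene was at 1.78, 1.55, 1.28 and 1.78 FPKM in NLH, at 3.22, 3.47, 9.17 and 7.55 in Ctrl, at 7.47, 8.82, 10.1 and 16.5 in LH, and at 8.51 to 9.65 in HC. Every NLH mouse was below every other mouse. On the log2 scale NLH differed by -2.15 (SE 0.26, adjusted p = 0.00242 from limma), -1.68 against Ctrl and -2.62 against LH. Against Ctrl alone the adjusted p from limma was 0.0833. The call was lost when the larger p of NLH vs. Ctrl and NLH vs. LH was adjusted, and with the test with equal variances on FPKM. The transcripts behind these sums differed between mice. The coding transcript ENSMUST00000095427.10 was at 6.10 to 7.71 FPKM in HC and at most 0.474 FPKM in NLH, and at 0.000334 FPKM in Ctrl replicate 1. The coding transcript ENSMUST00000153658.1 was seen only in LH replicates 3 and 4, at 6.09 and 13.5 FPKM, and made up most of Mtch1 there. The retained-intron transcript ENSMUST00000151739.1 was at 1.22 to 1.42 FPKM in NLH, 1.15 to 1.82 FPKM in Ctrl and 0.253 to 1.43 FPKM in LH. No single Mtch1 transcript passed the adjusted threshold, the lowest adjusted p from limma being 0.716.

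**Figure D3:**
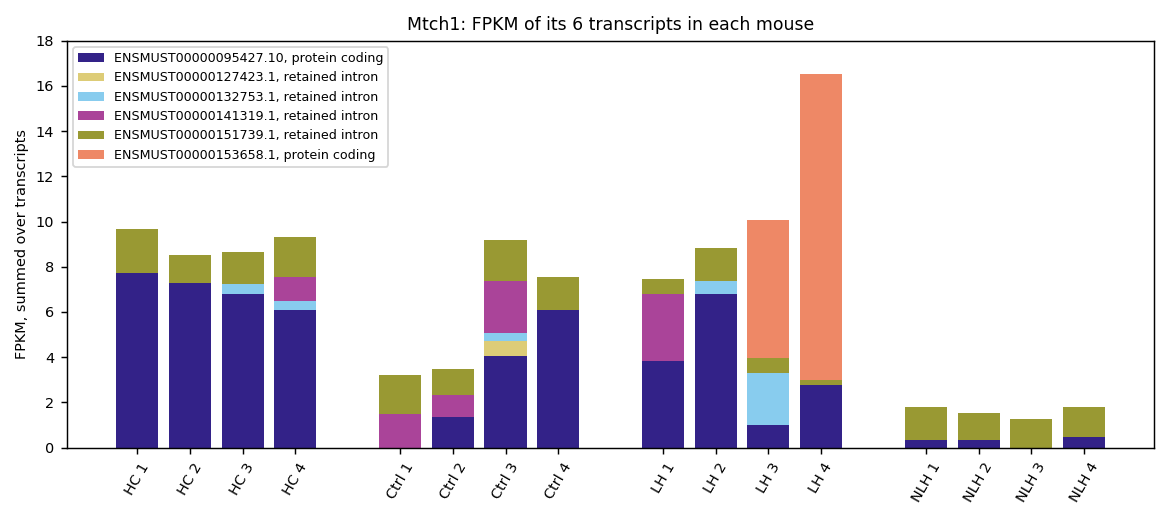
Stacked FPKM of the 6 transcripts of Mtch1 in each of the 16 mice, ordered by group. The 4 NLH bars reach 1.28 to 1.78 FPKM, and those of LH replicates 3 and 4 consist mostly of a coding transcript that no other mouse has.

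The remaining genes named by p did not pass the adjusted threshold, with adjusted p of 0.401 or more for the raised and 0.147 or more for the lowered ones in limma. The minimum mean for naming them was taken with the NLH mice included, which favors raised genes. Rbm28, a nucleolar RNA-binding protein, was at 2.04, 1.78, 1.46 and 1.59 FPKM in NLH, above all Ctrl mice (0.233 to 0.733 FPKM), all HC mice (0.642 to 1.07 FPKM) and all LH mice (0.981 to 1.37 FPKM). Nudt9, which hydrolyzes ADP-ribose, was at 10.2 to 13.4 FPKM in NLH and 5.34 to 10.6 FPKM in Ctrl and LH, where LH replicate 2 overlapped NLH. Atp5j2, a subunit of the mitochondrial ATP synthase, was at 4.64 to 6.81 FPKM in NLH and 0.888 to 4.00 FPKM in Ctrl and LH, with no overlap. Of its 4 transcripts only ENSMUST00000037056.8 kept NLH apart, at 2.27 to 3.65 FPKM in NLH and at most 1.85 FPKM in Ctrl and LH. The adjusted p of this transcript from limma was 0.705. Coq8a, which is needed for coenzyme Q synthesis, was at 6.33 ± 0.706 FPKM in NLH, 4.80 ± 0.864 in Ctrl and 4.11 ± 0.630 in LH (SD, n = 4).

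Kcnmb2, the beta subunit that gives BK potassium channels inactivation, was at 1.1 to 2.22 FPKM in NLH and 0.547 to 1.2 FPKM in Ctrl and LH. Its coding transcript ENSMUST00000194796.1 was at 1.61, 1.13, 0.211 and 0.596 FPKM in NLH, at 0.392 FPKM in Ctrl replicate 2, and at or near 0 in the other Ctrl, LH and HC mice (adjusted p = 0.112 from limma). Toporsos was at 7.32 and 2.74 FPKM in NLH replicates 1 and 3 and at 0.617 and 0.746 FPKM in NLH replicates 2 and 4, and overlapped Ctrl, which reached 0.644 FPKM. Its processed transcript ENSMUST00000207780.1 was seen only in NLH replicates 1 and 3, at 7.21 and 2.38 FPKM. This transcript is in the data only through NLH mice, and Toporsos reached a mean of 1 FPKM only through it. The direction of Toporsos is thus a description.

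Of the lowered genes, Adcy8, a calcium-stimulated adenylyl cyclase, was at 0.844, 1.18, 0.799 and 0.586 FPKM in NLH and 1.06 to 2.09 FPKM in Ctrl and LH. Nos1ap, an adaptor of neuronal nitric oxide synthase, was at 1.78 to 2.90 FPKM in NLH and 3.04 to 5.36 FPKM in Ctrl and LH, with no overlap. HC mice, at 1.73 to 3.44 FPKM, overlapped NLH. Cd53, a tetraspanin of leukocytes and microglia, was at 1.31 to 1.76 FPKM in NLH and 1.98 to 2.94 FPKM in Ctrl and LH, also with no overlap. Its values in HC, at 1.35 to 2.07 FPKM, overlapped those of NLH. Smim10l1 was at 0.0970 to 0.123 FPKM in NLH replicates 2 to 4, at 9.49 FPKM in NLH replicate 1, and at 2.91 to 13.4 FPKM in Ctrl and LH. HC mice were at 0.991 FPKM or less, so NLH replicates 2 to 4 lay with HC. Its adjusted p from limma was 0.646, and 0.00104 without NLH replicate 1, the mouse that departs from the others, so the second value is no independent test.

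A wider reading took every transcript with an unadjusted p under 0.05 in NLH vs. Ctrl and in NLH vs. LH, in 1 direction. It counted 1143 transcripts (1.43%), 818 higher (1.02%) and 325 lower (0.406%) in NLH. The corresponding counts were 3009 (3.75%) with LH set apart and 1651 (2.06%) with Ctrl set apart. By gene the count was 180 (0.984%), 126 higher (0.689%) and 54 lower (0.295%), against 613 (3.35%) for LH and 468 (2.56%) for Ctrl. Without NLH replicate 1 the gene count was 274. The predominance of raised genes depended on the scaling, and that of raised transcripts and genes on LH replicates 3 and 4. With size factors the split was 739 higher and 411 lower transcripts and 109 higher and 116 lower genes, and with mice weighted by their quality it was 680 and 558 transcripts and 128 and 122 genes. Without LH replicates 3 and 4 it was 529 and 630 transcripts and 80 and 169 genes. In these data the median difference over all genes was 0.06, and it was -0.00485 with size factors.

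**Figure D4:**
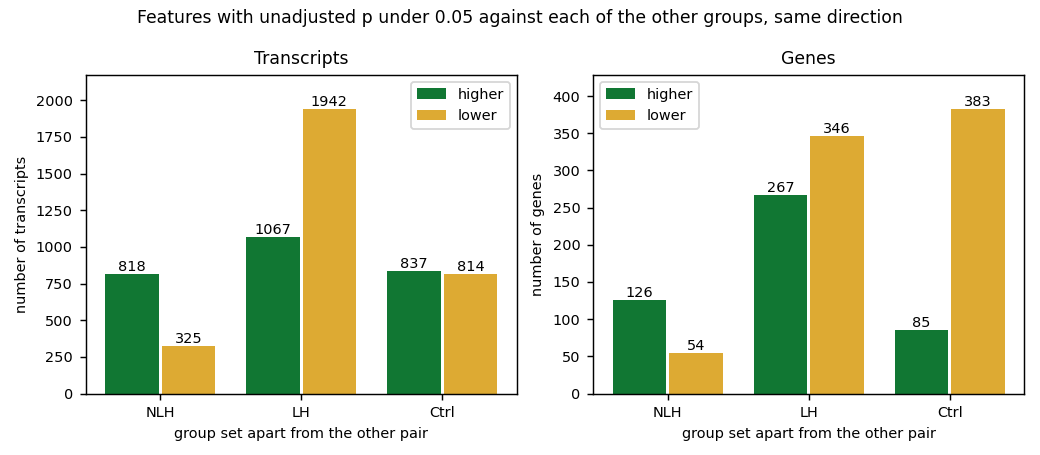
Number of transcripts (left) and genes (right) with an unadjusted p under 0.05 against each of the other groups in 1 direction, when NLH, LH or Ctrl is set apart from the other pair. NLH has the smallest total of the 3 groups at either level, 1143 transcripts and 180 genes. The fit took 1 spread per feature for all groups, though the median SD was 0.43 in LH, 0.25 in NLH and 0.18 in Ctrl. The totals are thus not on equal terms.

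The split by direction depended on the level. Among transcripts with a mean FPKM under 0.1 over the 12 mice, 346 of 20676 (1.67%) were counted and all 346 were higher in NLH. This direction is largely fixed by the bin, which includes the NLH mice, and by the 0.1 added to FPKM, and is no finding. Over all transcripts the split was 696 higher and 366 lower with 0.01 added and 972 and 235 with 1 added. Above 3 FPKM, 118 of 8442 (1.4%) were counted, 53 higher and 65 lower. By class, 58 of 4365 lncRNA transcripts (1.33%) were counted, 44 higher and 14 lower. Among them were 27 of 1549 lincRNAs (1.74%), 24 higher and 3 lower. The counted lincRNAs had a median level of 0.0894 FPKM, so the limit given for transcripts under 0.1 FPKM bears on their direction. Of transcripts of protein coding genes, 873 of 56384 (1.55%) were counted. Within those genes the share was 2.01% for transcripts marked for nonsense-mediated decay (61 higher, 11 lower), 1.49% for coding transcripts and 1.41% for retained introns. These shares lie near the 1.43% over all transcripts.

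In genes with several transcripts a counted transcript held a median of 4.32% of the FPKM of the gene where raised and 19.4% where lowered, beside 9.2% for transcripts not counted. Raised ones went against the sum of the gene's other transcripts in 46.1% of cases, beside 38.2% of uncounted transcripts with a positive difference. Lowered ones did so in 77% of cases, 157 of 204, beside 68.9% of uncounted transcripts with a negative difference. The rest of the gene had a median difference of 0.16 for the lowered transcripts and 0.09 for these uncounted ones. Of 872 genes with a counted transcript, 108 (12.4%) were also counted by gene, which is 60% of the 180 genes. Of these 180 genes 74 have a single transcript, for which both levels hold the same values.

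HC mice were not part of the rule, though they entered the estimate of spread. For all 14 transcripts past the adjusted threshold the HC mean was nearer to the mean of Ctrl and LH than to NLH, and among the 1143 transcripts this held for 860 (75.2%). Since these were chosen for an NLH mean far from both groups, the share is a description only. In 42 of the 1143 the HC mean was level with NLH or beyond it.

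Lists of genes related to stress and to synapses were examined on FPKM summed per gene. Over all genes 877 (4.8%) had an unadjusted p under 0.05 in the combined contrast with NLH on 1 side of both groups, 656 higher (3.59%) and 221 lower (1.21%). Over the 304 measured members of 18 lists, 5 were higher and 2 lower (2.3%), none passed the adjusted threshold in limma, and none passed against both groups.

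Of 18 immediate early genes, the transcriptional response to neuronal activity, 1 was lower at that threshold and none higher. This was Dusp6, the phosphatase of ERK, at 7.12 to 9.50 FPKM in NLH, 9.41 to 11.1 FPKM in Ctrl and 8.20 to 12.6 FPKM in LH, with HC at 7.12 to 7.90 FPKM (difference -0.29, SE 0.12, unadjusted p = 0.0258 from limma). The median of the list was -0.03, beside 0.06 over all genes, and its sign changed with the mouse left out. No member reached it among 19 corticosteroid receptors and glucocorticoid targets. Sgk1, a kinase induced by glucocorticoids, had the smallest p there, with 9.49 to 20.3 FPKM in NLH, 15 to 19 FPKM in Ctrl except 45.5 FPKM in replicate 2, and 15.4 to 22.9 FPKM in LH. The 3 groups overlapped. Of 30 stress peptides and receptors, Trh, the thyrotropin-releasing hormone precursor, reached it (unadjusted p = 0.0425 from limma) with up to 0.538 FPKM in NLH and up to 0.157 FPKM in Ctrl and LH, NLH replicate 1 being at 0.

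None of the 17 neurotrophic factors and receptors, 13 monoamine receptors and enzymes, 21 glutamate receptors and 17 genes of GABA receptors, synthesis and transport passed an unadjusted p of 0.05. Fgf2, a growth factor with the smallest p among the neurotrophic genes, was at 1.01 to 1.23 FPKM in NLH, 0.487 to 0.861 FPKM in Ctrl and 0.876 to 1.4 FPKM in LH, overlapping LH. Vegfa, a vascular and neurotrophic growth factor, had 6.27 to 7.20 FPKM in NLH and 2.28 to 6.17 FPKM in Ctrl and LH, without overlap, at an unadjusted p of 0.143 from limma. Grm7, a presynaptic glutamate receptor, was at 13.5 to 15.1 FPKM in NLH and 11.1 to 13.9 FPKM in Ctrl and LH.

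Of 36 chromatin writers, erasers and readers 2 were higher at an unadjusted p of 0.05, both overlapping the other groups. Crebbp, a histone acetyltransferase, was at 8.75 to 10.6 FPKM in NLH and 6.64 to 11 FPKM in Ctrl and LH, and Tet2, which oxidizes methylcytosine, at 1.69 to 3.63 FPKM in NLH and 1.10 to 2.32 FPKM in Ctrl and LH.

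Markers of cell types and of neighboring tissues were read in the same way. Of 17 hippocampal subfield markers, Wfs1 of CA1 had an unadjusted p of 0.0243 from limma, at 1.19 to 4.71 FPKM in NLH, 0.625 to 1.43 FPKM in Ctrl and 0.00225 to 1.55 FPKM in LH, and the median of the list was -0.00491. Of 15 microglia markers, Trem2 had an unadjusted p of 0.0298 from limma, at 2.05 to 4.32 FPKM in NLH and 2.89 to 5.42 FPKM in Ctrl and LH, while 11 of the 15 had a positive difference and the median was 0.06. Over all 18287 genes 11542 had a positive and 6671 a negative difference. No marker passed among 13 for oligodendrocytes, 11 for astrocytes, 13 for endothelial cells and pericytes, 13 for the striatum, 7 for the thalamus and 4 for red blood cells, and the medians of these lists lay between -0.00826 and 0.10. Of 13 choroid plexus markers 12 had a negative difference, with a median of -0.36, and none had an unadjusted p under 0.05. Without NLH replicate 4 the median was 0.27, with 12 of 13 positive. It was -0.04 without LH replicate 2, and -1.17 without LH replicates 3 and 4, with all 13 negative. Their summed level ran from 22.3 to 218 FPKM in NLH, from 72.0 to 175 FPKM in Ctrl and from 14.6 to 338 FPKM in LH, and none of the 13 was at 0 in all mice. The part of choroid plexus tissue in other results was not tested.

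**Figure D5:**
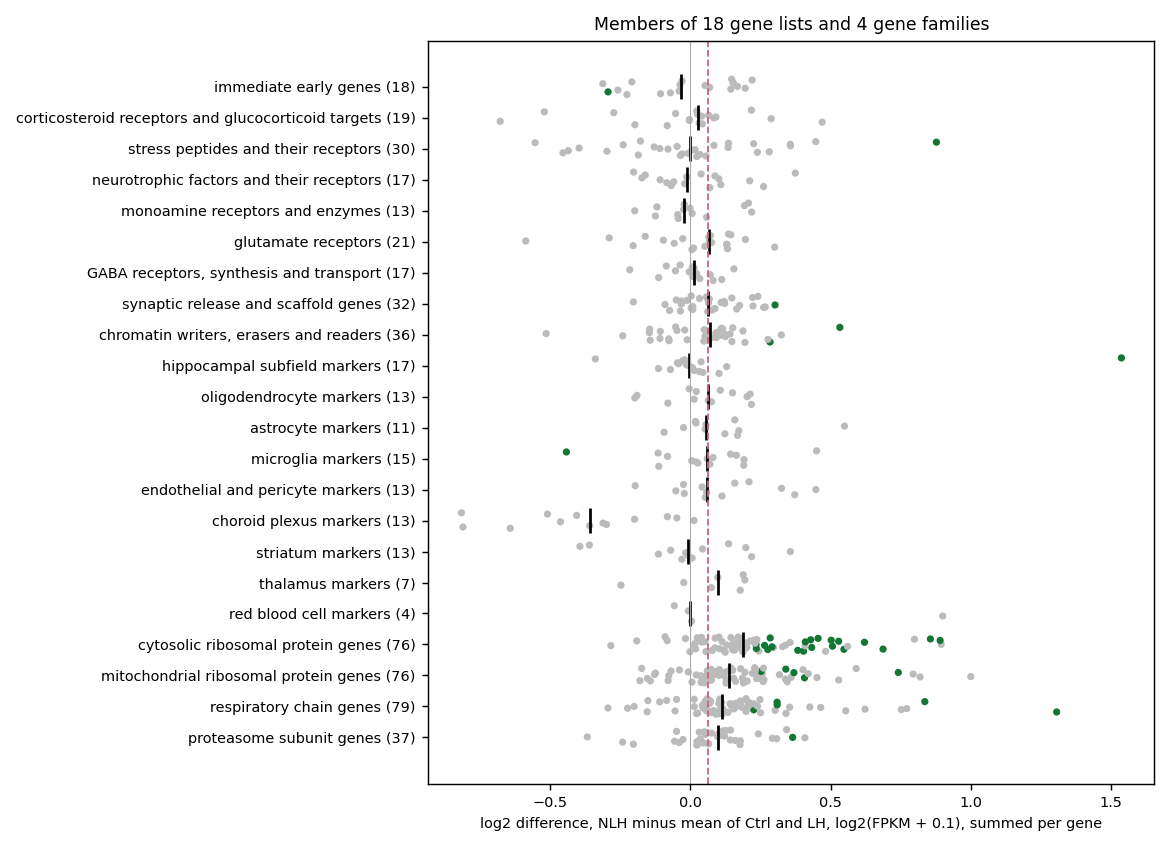
Difference between NLH and the mean of Ctrl and LH on the log2(FPKM + 0.1) scale for each member of 18 gene lists and 4 gene families, with the number of measured members in brackets. Black lines mark the median of a list, the dashed line the median of all genes (0.06), and green points an unadjusted p under 0.05. The cytosolic ribosomal protein genes lie furthest to the right as a group, with a median of 0.19.

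Ribosomal protein genes were looked at after their values had been seen. Of 76 cytosolic ribosomal protein genes, 70 had a positive difference, beside 11542 of all 18287 genes and 7070 of the 10457 averaging 1 FPKM or more. An unadjusted p under 0.05 from limma was found for 20 (26.3%, beside 4.8% of all genes), all higher in NLH. The median was 0.19. None passed the adjusted threshold in limma. Against both groups 4 of the 76 passed, beside 180 of all 18287 genes (0.984%), namely Rpl31, Rps24, Rps27a and Rps13. Rps24 was at 112, 124, 129 and 116 FPKM in NLH, at 76.5 to 84.2 FPKM in Ctrl, and at 121, 109, 99.4 and 68.5 FPKM in LH. Every NLH mouse was thus above every Ctrl mouse, while LH replicate 1 lay within the NLH range and LH replicate 4 below Ctrl. Rpl31 was at 61.4 to 74.6 FPKM in NLH, 43.3 to 52.8 FPKM in Ctrl and 46.5 to 72.8 FPKM in LH. Rps27a was at 15.6 to 22.1 FPKM in NLH, 8.48 to 9.73 FPKM in Ctrl and 6.28 to 17.7 FPKM in LH.

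The summed FPKM of the 76 genes was 3432 to 4400.1 in NLH, 3129 to 3508 in Ctrl, 2549 to 4176 in LH and 3090.1 to 3504 in HC. With size factors 61 of the 76 genes were positive with a median of 0.11, and without LH replicates 3 and 4 55 were positive with a median of 0.09, while the median of all genes was then -0.03. Many ribosomal protein genes have near-identical processed pseudogenes, and how reads were shared with these is not given in the sources used here. Of 76 mitochondrial ribosomal protein genes 5 (6.58%) and of 79 respiratory chain genes 5 (6.33%) had an unadjusted p under 0.05, all higher, and of 37 proteasome subunit genes 1 (2.7%). The median of the respiratory chain genes was 0.11, and it was -0.02 without LH replicates 3 and 4, so its direction depends on those mice.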

How the data were processed

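RNA-seq of the hippocampus of 16 mice, 4 each in HC, Ctrl, LH and NLH, 1 library per mouse, was used. The deposited values are FPKM per transcript. The authors assembled and merged transcripts with StringTie 1.2.3 and quantified them with Cufflinks on mm10. The methods name HISAT2 as the aligner and the submitters' processing notes STAR. FPKM are not counts, so depth was only estimated, by a search for the library size at which most values are whole fragments.

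After adding 0.1 and taking log2, FPKM of the 16 mice were modelled in limma 3.58.1 under R 4.3.3, with a mean for each of 4 groups and trended, robust moderation. The contrast was NLH minus the mean of Ctrl and LH, with Benjamini-Hochberg adjustment over 80137 transcripts or 18287 gene names (summed FPKM), and NLH was required to lie on the same side of both group means. The same fit with LH or Ctrl set apart served for comparison. The script was tested on simulated data. Positions, transcript types and sequences were taken from GENCODE vM21 (GRCm38), where 99.4% of 61220 Ensembl transcripts were found.

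Named were 1700065J18Rik, all called transcripts, the 6 transcripts and 6 genes of smallest p in each direction with a mean FPKM of at least 1, and in each list the members with an unadjusted p under 0.05 or else those of smallest p. Some list members that this rule names are not reported here. The contrast, members and lists were chosen with earlier results of these data known. Ribosomal, respiratory chain and proteasome families were added after their values were seen. Alternatives changed the pseudocount to 0.01 or 1, the minimum FPKM, scaling, weights, moderation, test and mice. The data.table package (1.17.8), Python 3.11.15, numpy 2.4.6, pandas 2.3.3 and matplotlib 3.10.9 were also used.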

Additional observations from a re-analysis of the deposited data

Results flagged for a closer look

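In 14 of 82 groups of 4 mice tested, 1 mouse lay further from the rest than Dixon's critical value at the 95% level allows. Chance flags about 1 in 20 groups of normally distributed values. Many of these groups hold mice near 0 FPKM in features chosen by the test, so the 14 cannot be set against that rate. NLH replicate 1 was the mouse in 5 of them, with 1.06 FPKM for 1700065J18Rik, 0.137 for the Pgm3 transcript, 3.46 for the Abi1 transcript, and 9.49 and 1.76 for the summed FPKM of Smim10l1 and Cd53. In each of these it had the highest value of its group. Ctrl replicate 1 was at 0.107 FPKM for the Ylpm1 transcript, Ctrl replicate 2 at 0.794 for the Oxct1 transcript, Ctrl replicate 3 at 6.09 for Coq8a, and Ctrl replicate 4 at 9.53 for the Mbp transcript and 3.93 for Gm29542. LH replicate 2 was at 1.51 FPKM for the Suclg1 transcript, LH replicate 3 at 0.416 for Uri1 and 1.93 for Slc39a10, and LH replicate 4 at 0.105 for Dock9. Groups whose highest value was under 0.1 FPKM were not tested.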

How the results depend on the processing

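None of the 23 transcripts and 13 genes called or named by smallest p changed its direction in an alternative. Single members of lists and families were not followed through the alternatives. Medians of lists near 0 and that of the choroid plexus markers changed sign. Of 14 transcripts past the adjusted threshold, 3 remained in number at a mean FPKM of at least 1, 2 when the larger p of NLH vs. Ctrl and NLH vs. LH was adjusted, and 40 with the study's test with equal variances on FPKM. Leaving out 1 mouse gave 11 to 119, and leaving out LH replicates 3 and 4, chosen after the data were seen, gave 29. The 2 genes became 1 at a mean FPKM of at least 1, 4 with size factors, 4 with array weights, 1 with the larger p, 0 with the study's test on FPKM (663 at an unadjusted p under 0.05), and 2 to 7 without 1 mouse. The wider count of 1143 transcripts was 300 at a mean FPKM of at least 1 and 874 to 1663 without 1 mouse, and that of 180 genes was 96 and 134 to 274. At the minimum FPKM fewer features were tested. For the other changes the cause was not tested. Mice with the same number did not deviate together (median r -0.00444 over 12 pairs), so the numbers were not taken to pair mice. With a replicate block the counts were 16, 2, 1156 and 170. Transcripts of a few fragments per mouse, 1700065J18Rik among them, are limited by depth, and LH replicates 3 and 4 by the number of transcripts listed at 0.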
